A study of Rattus norvegicus with 3 samples.

Results

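Tubulins and cytoplasmic intermediate filaments were followed in ventricular myocytes of newborn rats with 8 named genes: the β-tubulin genes Tubb6, Tubb2a and Tubb5, the α-tubulin genes Tuba1a and Tuba4a, and the intermediate filament genes Des (desmin), Vim (vimentin) and Nes (nestin). The members were all probe sets that the array's annotation assigns to 1 gene symbol among these names, whatever their signal. This gave 8 probe sets for 7 genes, of 10411 genes named on the array, with 2 probe sets for Tubb5 and 1 for each of the other 6. Tuba1a had no probe set of its own, because the 1 probe set that lists it also lists Tuba1b and Tuba1c.

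The myocytes had been cultured for 48 h with 1 µM PAMH, with 20 µM phenylephrine or without stimulus, and total RNA of each culture was hybridised to 1 Affymetrix rat array. Phenylephrine activates α1-adrenergic receptors and induces hypertrophic growth of such cultures, and PAMH is known here by its name alone. The labels name no strain, sex or genetic change for any group, and how many animals or dishes stood behind an array is not given in the sources used here. With 1 array per condition, there were no replicates, no test was possible, and the condition and the culture it came from cannot be told apart. The 2 compounds were used at different doses, so their values stand side by side.

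Microtubules are hollow polymers of α- and β-tubulin dimers, and each subunit is encoded by several genes whose products differ mainly in their acidic tails. In cardiac myocytes microtubules carry mRNA and proteins, bear load during contraction and become denser in hypertrophy. Desmin filaments tie the Z-discs of neighbouring myofibrils to each other and to the membrane. Vimentin is the intermediate filament of fibroblasts and other mesenchymal cells, and nestin is a filament protein of progenitor and regenerating cells that copolymerises with vimentin or desmin.

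Values below are deposited intensities brought to a common array median with 1 scaling factor each. The intensities as deposited already shared a level, since their means without the outer 2% of values were 250.1 on all 3 arrays, so this is a further scaling of values that had equal trimmed means. As deposited, the PAMH median lay at a log2 ratio of -0.15 to the unstimulated median and the phenylephrine median at -0.13, and all ratios are relative to this shift. A ratio was formed where both arrays lay at or above a floor of 76.0, percentile 40 of all scaled values, and all 8 member probe sets lay above it on all 3 arrays. Of 15 cardiac myocyte markers, 14 were on the array and all 14 lay above the floor in every condition. The same held for 12 of 15 fibroblast and matrix markers and 7 of 8 smooth muscle markers. Over all probe sets, 59.95% lay above the floor on the PAMH and unstimulated arrays and 60.13% on the phenylephrine array. Lying above the floor was thus common, and these counts alone do not show which cell types the cultures held. The actin control, whose 3′ to 5′ signal ratio is a sign of RNA integrity, gave 1.54 with PAMH, 1.44 with phenylephrine and 1.72 in unstimulated cells. The same ratio of the Gapdh control was 1.01, 1.07 and 1.04, nearly level.

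Tubb6, Des and Tuba4a were higher with both compounds, while Vim lay close to its unstimulated signal. At a threshold of 1.5-fold, 3 of 7 members were higher with PAMH and none lower, where 9.31% of 6549 genes were higher and 4.17% lower. With phenylephrine 4 of 7 were higher and none lower, where 8.90% of 6571 genes were higher and 4.54% lower. At 2-fold, the members higher numbered 2 with PAMH, against 2.05% of all genes, and 3 with phenylephrine, against 2.62% of all genes. The member median log2 ratio was 0.52 with PAMH and 0.68 with phenylephrine, and the median over all measured genes was 0.10 and 0.07. Both comparisons used the same unstimulated array, so its deviations entered both. The split over all genes differed between median scaling and the values as deposited, which share a trimmed mean: 610 genes were higher and 273 lower with PAMH, against 350 and 515 as deposited, and 585 were higher and 298 lower with phenylephrine, against 396 and 519. Fewer cells of a type and less RNA per cell cannot be told apart in these bulk cultures.

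**Figure D1:**
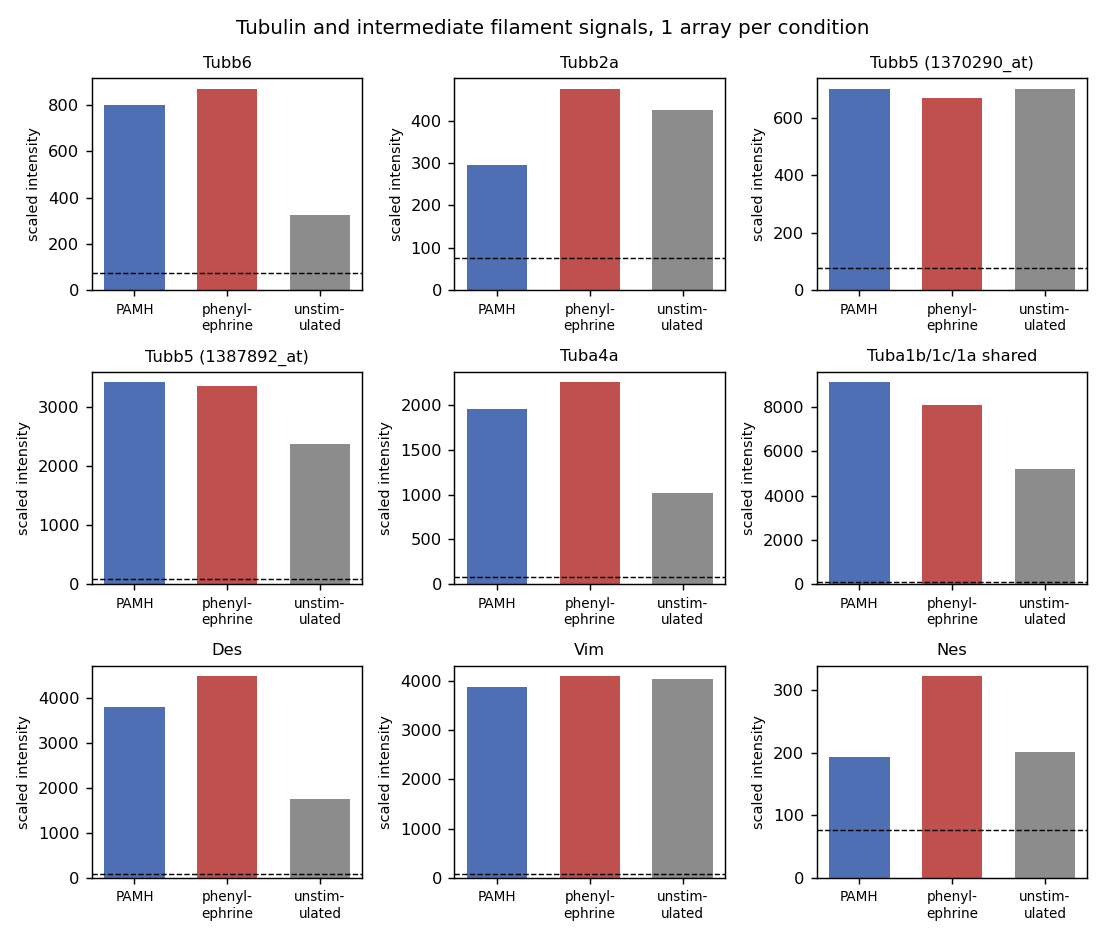
Scaled intensity (linear axis from 0) of each tubulin and intermediate filament probe set on the PAMH, phenylephrine and unstimulated arrays, 1 array per bar; the dashed line is the floor of 76.0. Tubb6, Tuba4a and Des are lowest on the unstimulated array, Vim is level, Tubb2a is lowest with PAMH and Nes is highest with phenylephrine.

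The 250 bases before the annotated start of the genes whose ratios stood furthest apart are shown because Tubb6, Tuba4a and Des were higher with both compounds and Tubb2a was lowest with PAMH. They come from RefSeq (build GRCr8), where all 8 members had an entry, and run 5′ to 3′ on the gene's strand. Capitals mark matches on either strand to 4 motifs, and no matches overlap here. The GC box, spelled GGGCGG, is bound by factors of the Sp family. The CCAAT box is known by its own letters and is bound by the factor NF-Y. The E-box, spelled CANNTG, reads the same on both strands and is bound by basic helix-loop-helix factors. The TATA box, searched as TATAAA, helps to place the start of transcription.
Tubb6, chr18:63213037-63213286, plus strand: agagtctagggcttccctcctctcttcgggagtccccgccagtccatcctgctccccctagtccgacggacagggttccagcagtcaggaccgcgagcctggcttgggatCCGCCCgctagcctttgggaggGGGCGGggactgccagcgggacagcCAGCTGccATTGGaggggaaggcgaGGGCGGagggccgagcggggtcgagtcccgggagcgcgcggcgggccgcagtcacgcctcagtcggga
Tuba4a, chr9:84162585-84162834, minus strand: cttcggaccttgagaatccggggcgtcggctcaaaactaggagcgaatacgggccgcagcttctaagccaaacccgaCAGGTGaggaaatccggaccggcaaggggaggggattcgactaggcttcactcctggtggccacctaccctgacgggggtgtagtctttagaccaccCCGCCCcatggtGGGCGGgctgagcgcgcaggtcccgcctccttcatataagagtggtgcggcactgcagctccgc
Des, chr9:84299376-84299625, plus strand: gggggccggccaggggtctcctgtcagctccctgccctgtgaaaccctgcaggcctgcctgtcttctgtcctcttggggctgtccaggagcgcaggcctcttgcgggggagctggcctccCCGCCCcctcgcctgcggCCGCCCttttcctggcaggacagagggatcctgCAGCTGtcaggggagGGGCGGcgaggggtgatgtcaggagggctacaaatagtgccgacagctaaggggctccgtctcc
Tubb2a, chr17:31001936-31002185, plus strand: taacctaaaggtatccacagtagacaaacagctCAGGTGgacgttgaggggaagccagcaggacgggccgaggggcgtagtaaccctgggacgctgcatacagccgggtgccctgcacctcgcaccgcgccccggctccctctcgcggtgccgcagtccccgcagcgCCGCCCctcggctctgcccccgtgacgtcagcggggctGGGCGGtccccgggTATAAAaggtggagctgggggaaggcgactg

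Each of the 4 windows held 1 E-box, a motif found in 65.5% of the same window of 33469 genes, and 2 or 3 GC boxes, found at least once in 30.5%. The E-box lay 87 bases from the start in Tubb6, 73 in Des, 167 in Tuba4a and 211 in Tubb2a. A CCAAT box stood in Tubb6 alone of the 4 and in 34.0% of all genes, and a TATA box, found in 12.9%, stood in Tubb2a alone, 25 bases from the start. The consensus MEF2 motif and the CArG box of serum response factor, both known from muscle genes, occurred in 991 and 501 of the 33469 windows and had no match in those of the 8 members. The G and C content was 71.2% in Tubb6, 68.8% in Des, 62.8% in Tuba4a and 68.4% in Tubb2a, against a median of 51.2%. Matches describe letters in these windows.

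Tubb6 encodes the class V β-tubulin, an isotype of low abundance in most adult tissues that in mice is induced in regenerating skeletal muscle. Its probe set (NCBI Gene ID 307351) had a signal of 799.8 with PAMH, 872 with phenylephrine and 325 in unstimulated cells. Both treated arrays lay well above the unstimulated one and close to each other. The ratio was 2.46-fold with PAMH and 2.68-fold with phenylephrine, and 55 of 6549 and 59 of 6571 genes had a higher one. PAMH against phenylephrine gave a log2 ratio of -0.12, within the SD of 0.23 that separates probe sets of the same gene in that comparison (866 genes). That SD was 0.29 for PAMH against unstimulated (867 genes) and 0.27 for phenylephrine against unstimulated (864 genes). It is a technical yardstick and holds no variation between cultures.

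Tubb5 (Gene ID 29214), the class I β-tubulin found in nearly all cells, was measured by 2 probe sets that disagreed. The brighter had 3413 with PAMH, 3358 with phenylephrine and 2373 unstimulated, so both treated arrays were above the unstimulated one, by log2 ratios of 0.52 and 0.50, under the 1.5-fold threshold. The other had 703 with PAMH, 671 with phenylephrine and 703 unstimulated, with log2 ratios of -0.00 and -0.07. The gap between the paired ratios was 0.52 and 0.57, about as large as the ratio of the brighter one, so Tubb5 has no settled size.

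Tubb2a encodes a class II β-tubulin that is abundant in neurons and present in heart. Its probe set (Gene ID 498736) had 295 with PAMH, 476 with phenylephrine and 425 in unstimulated cells. Only the PAMH array stood low. PAMH against unstimulated gave a log2 ratio of -0.53, short of 1.5-fold, and it passed that threshold, at up to -0.68, under 4 of 9 alternative settings. Phenylephrine against unstimulated gave 0.16. Against phenylephrine, Tubb2a was 1.61-fold lower with PAMH, and 94 of 6593 genes had a lower ratio.

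The β-tubulin genes differed from each other in how far they lay from their unstimulated signals. The log2 ratio of Tubb6 exceeded that of Tubb2a by 1.82 with PAMH and by 1.26 with phenylephrine, and that of Tubb5 by 0.78 and 0.92. Such differences between genes on the same arrays cannot be moved by a factor per array. Over 9 alternative settings the gap between Tubb6 and Tubb2a ranged from 1.64 to 1.82 with PAMH and from 1.15 to 1.26 with phenylephrine. These pairs were chosen after their values were seen.

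Tuba4a encodes an α-tubulin that, unlike most α isotypes, is made without the terminal tyrosine in mouse and human. Its probe set (Gene ID 316531) gave 1965 with PAMH, 2259 with phenylephrine and 1023 in unstimulated cells. Both compounds lay above the unstimulated signal, by 1.92-fold with PAMH and 2.21-fold with phenylephrine, or log2 ratios of 0.94 and 1.14. After quantile normalization the Tuba4a log2 ratios were smaller, at 0.70 and 0.95, and after cyclic loess 0.67 and 0.93. The shared α-tubulin probe set, which the annotation gives to Tuba1b, Tuba1c and Tuba1a together, had 9124, 8085 and 5221 on the PAMH, phenylephrine and unstimulated arrays. It was 1.75-fold higher with PAMH and 1.55-fold higher with phenylephrine, and which of its genes carried this cannot be read from it. As deposited, this bright shared probe set had 8747 with PAMH, 7901 with phenylephrine and 5572 in unstimulated cells. On those values phenylephrine fell short of 1.5-fold. No other alternative setting was computed for it. Genes in the brightest of 10 equal signal classes had median log2 ratios of 0.32 with PAMH and 0.24 with phenylephrine.

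Des, the muscle desmin gene, had signals of 3798 with PAMH, 4493 with phenylephrine and 1747 in unstimulated cells (Gene ID 64362). Both treated arrays were above the unstimulated one, by 2.17-fold with PAMH and 2.57-fold with phenylephrine. Only 86 of 6549 and 70 of 6571 genes had higher ratios. PAMH against phenylephrine gave a log2 ratio of -0.24, close to the yardstick SD of 0.23.

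Vim had 3881 with PAMH, 4101 with phenylephrine and 4045 in unstimulated cells (Gene ID 81818). The 3 arrays were nearly level, with log2 ratios of -0.06 with PAMH and 0.02 with phenylephrine. Genes in the brightest of 10 equal signal classes, to which Vim belongs, had median log2 ratios of 0.32 with PAMH and 0.24 with phenylephrine. Under normalizations that remove this dependence on signal, Vim was lower, all short of 1.5-fold: after quantile normalization its log2 ratio was -0.46 with PAMH and -0.33 with phenylephrine, and after cyclic loess -0.44 and -0.27. On the deposited intensities the phenylephrine ratio was also below 0, at -0.11, as it was at -0.02 with percentile 75 scaling. The log2 ratio of Des exceeded that of Vim by 1.18 with PAMH and 1.34 with phenylephrine, with ranges of 1.16 to 1.23 and 1.32 to 1.39 over the 9 alternatives.

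Nes differed between the compounds. Its probe set (Gene ID 25491) had 193 with PAMH, 323 with phenylephrine and 201 in unstimulated cells. The phenylephrine array stood alone above the others. Phenylephrine against unstimulated was 1.60-fold, PAMH against unstimulated had a log2 ratio of -0.06, and PAMH against phenylephrine was 1.67-fold lower. In that last comparison 75 of 6593 genes had a lower ratio. Nes with phenylephrine was below 1.5-fold on the deposited intensities (log2 ratio 0.55) and with an offset of 50 (0.57).

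In PAMH against phenylephrine as a whole, no member of 7 was at least 1.5-fold higher and 2, Nes and Tubb2a, were lower, where 1.93% of 6593 genes were higher and 2.67% lower. The other 5 lay between log2 ratios of -0.24 and 0.02, and their median with these 2 was -0.20 against 0.04 over all genes.

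**Figure D2:**
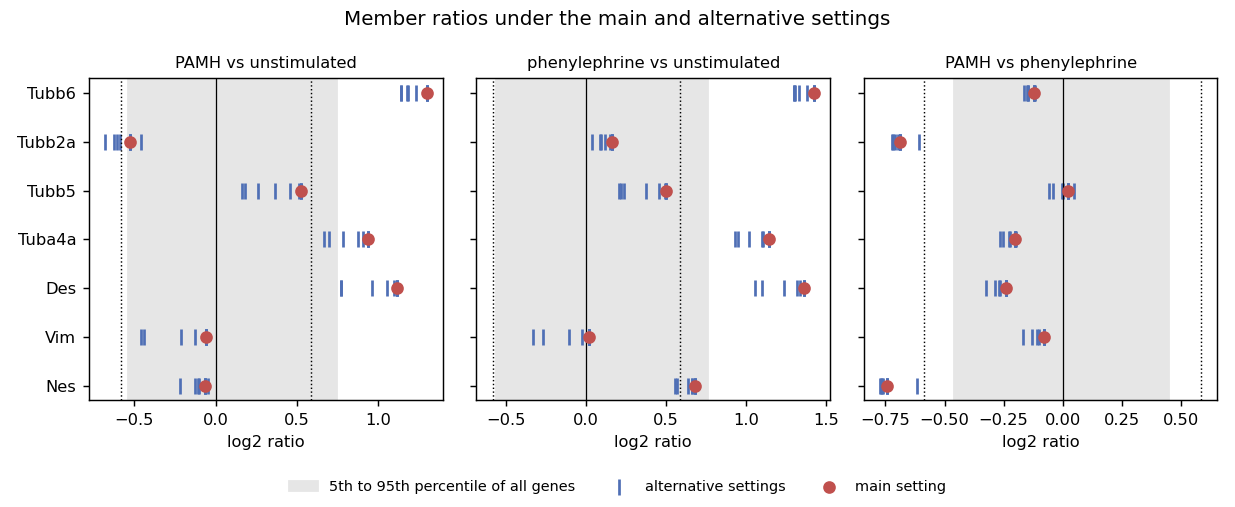
Log2 ratio of each member (red point, main setting; blue ticks, alternative settings) in the 3 comparisons; the grey band spans percentiles 5 to 95 of all measured genes and dotted lines mark 1.5-fold. Tubb6, Tuba4a and Des lie right of the 1.5-fold line with both compounds under every setting tried, and Tubb2a and Nes lie left of it in PAMH against phenylephrine.

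Markers of cell types that make these filaments differed between the arrays as well. The summed signal of the fibroblast and matrix markers was 8427 with PAMH, 10600.5 with phenylephrine and 13166.5 in unstimulated cells, with 8 of 12 measured genes at least 1.5-fold lower with PAMH, 2 of 12 with phenylephrine and none higher. Their median log2 ratios were -0.77 and -0.44, against -0.06 and 0.02 for Vim, which fibroblasts express strongly. These values hold for median scaling. Vim had -0.46 and -0.33 after quantile normalization and -0.44 and -0.27 after cyclic loess, and the marker medians were not recomputed there. Smooth muscle cells also contain desmin, and the sum of their markers was 10002 with PAMH, 12125 with phenylephrine and 5853 in unstimulated cells, with 3 of 7 and 4 of 7 genes higher and 1 and none lower. The median log2 ratio of that list was 0.37 with PAMH and 0.88 with phenylephrine. Its bright genes Acta2, Tagln, Cnn1 and Myl9 carried the sum, while Myh11, the smooth muscle myosin heavy chain, had -0.64 and 0.02, Mylk -0.58 and -0.30, and Smtn -0.19 and -0.36. Cardiac myocyte markers summed to 140934, 118399 and 93085 in the same order of arrays, with 5 of 14 and 3 of 14 higher and none lower. Their median log2 ratios were 0.43 with PAMH and 0.10 with phenylephrine, against 0.10 and 0.07 over all genes. With phenylephrine the 3 higher ones were Nppa (1.18), Myl3 (0.60) and Myh7 (0.59). Beside these counts, 9.31% of all genes were higher and 4.17% lower with PAMH, and 8.90% and 4.54% with phenylephrine. The part of the cell mixture in the member ratios was not tested.

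Nestin is also made by endothelial cells, pericytes and Schwann cells. Of 8 endothelial markers on the array, 1 lay above the floor on all 3 arrays and 5, Pecam1, Vwf, Kdr, Cldn5 and Flt1, lay below it on all. Their summed signal, to which these dim values belong, was 376 with PAMH, 606.5 with phenylephrine and 553 in unstimulated cells. Egfl7, the 1 above the floor throughout, had 139, 173 and 181 in that order, highest in unstimulated cells. Pericyte markers summed to 870.3, 913 and 680.2, with Rgs5 and Kcnj8 below the floor throughout. In that sum Cspg4 alone had 200.1 with PAMH, 429 with phenylephrine and 70.7, below the floor, in unstimulated cells, and Abcc9 had 437, 265 and 421, lowest with phenylephrine. The median log2 ratio of the 2 pericyte markers measured was 0.18 with PAMH and -0.19 with phenylephrine. Of 7 Schwann cell or neuronal markers 5, S100b and Sox10 among them, were below the floor on all arrays, and the sum was 511, 548 and 463. Most of this sum was Uchl1, with 308, 345 and 238.

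**Figure D3:**
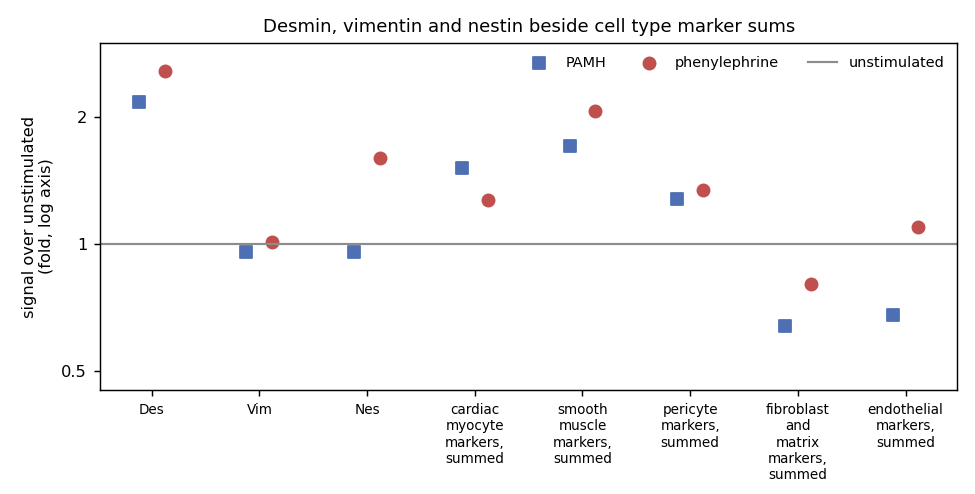
Signal with PAMH (squares) and phenylephrine (circles) as a fold of the unstimulated array (log axis, grey line at 1) for Des, Vim and Nes and for the summed signals of marker lists. Under the median scaling shown, Vim stays near 1 while the summed fibroblast and matrix markers lie at 0.640 with PAMH and 0.805 with phenylephrine. Des lies above 1 with both compounds, and so do the cardiac myocyte, smooth muscle and pericyte sums.

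Other tubulin genes were mostly dim or missing from the array: of 15 listed, 5 were on it. Tubb4b, the class IV β-tubulin of many tissues including heart, had 3840.4 with PAMH, 4220 with phenylephrine and 2009 in unstimulated cells. It was 1.91-fold higher with PAMH and 2.10-fold higher with phenylephrine, but under quantile and cyclic loess normalization its PAMH log2 ratio was 0.58, just short of 1.5-fold. Tubb2b, a close paralog of Tubb2a, had 66.7 with PAMH, 97.3 with phenylephrine and 118 in unstimulated cells. The PAMH value was below the floor, so no PAMH ratio was formed. With phenylephrine its log2 ratio was -0.28, against 0.16 for Tubb2a. Cross-hybridisation between Tubb2a and Tubb2b was not tested. Tuba8 gave 76.1, 111 and 79.8 on the PAMH, phenylephrine and unstimulated arrays, all near the floor. The γ-tubulin gene Tubg1, whose product nucleates microtubules, had log2 ratios of 0.32 with PAMH and 0.08 with phenylephrine. The neuronal class III gene Tubb3 lay below the floor on every array with both of its probe sets.

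New tubulin is folded by prefoldin, the cytosolic chaperonin and a set of tubulin cofactors. Of 21 measured genes of this group 1 was at least 1.5-fold higher with each compound, none was lower with PAMH and 1 was lower with phenylephrine. Over all genes, 9.31% were higher and 4.17% lower with PAMH, and 8.90% and 4.54% with phenylephrine. The group's median log2 ratio was 0.18 with PAMH and 0.20 with phenylephrine. The prefoldin subunit gene Pfdn1 was the higher one, with signals of 1666, 1834 and 792 on the PAMH, phenylephrine and unstimulated arrays, or 2.10-fold and 2.32-fold. The chaperonin subunit gene Cct3 followed at log2 ratios of 0.42 and 0.50. Lowest with PAMH were Tbcel (-0.33) and the prefoldin gene Pfdn4 (0.03), and lowest with phenylephrine were Ttc5 (-0.73) and the cofactor gene Tbcd (-0.22). Ttc5 encodes the protein that recognises nascent tubulin chains when free tubulin is in excess and starts decay of tubulin mRNA. Its signal was 140.3 with PAMH, 76.3 with phenylephrine and 127 in unstimulated cells. The phenylephrine value was at the floor of 76.0, and with an offset of 50 its log2 ratio was -0.48, while as deposited and with percentile 75 scaling it lay under the floor and had no ratio.

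Tubulin is modified after assembly, and 8 modifying enzyme genes were measured against the unstimulated array. Of these, 2 were higher with PAMH, 1 was higher with phenylephrine and none was lower. All-gene shares were 9.31% higher and 4.17% lower with PAMH, and 8.90% and 4.54% with phenylephrine. Hdac6, a tubulin deacetylase, had 307 with PAMH, 441 with phenylephrine and 163 in unstimulated cells, or 1.88-fold and 2.70-fold higher. Vash2, one of the vasohibins that remove the terminal tyrosine of α-tubulin, had 313, 219.6 and 147 by its brightest probe set. It was 2.13-fold higher with PAMH, with a log2 ratio of 0.58 with phenylephrine, just short of 1.5-fold, and a further probe set gave 0.94 and 0.83. Svbp, the partner that vasohibins need, had log2 ratios of -0.24 and -0.25, and the deacetylase gene Sirt2 -0.13 and -0.11. Ttl, whose enzyme adds the tyrosine back, had -0.02 with PAMH and 0.22 with phenylephrine. The group's median was 0.17 with PAMH and 0.26 with phenylephrine.

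Of 18 measured genes for microtubule-binding proteins, 3 were higher with PAMH and 2 with phenylephrine, and none was lower. Among all genes, 9.31% were higher and 4.17% lower with PAMH, and 8.90% and 4.54% with phenylephrine. Tppp, which bundles and stabilises microtubules, was 1.67-fold higher with PAMH and 1.92-fold with phenylephrine, from an unstimulated signal of 91.3 near the floor, and its PAMH log2 ratio was 0.52 with an offset of 50. Map1b, a stabilising protein of growing neurites, was 1.60-fold and 1.93-fold higher, but its PAMH log2 ratio was 0.55 after quantile normalization, and a second probe set was below the floor on the phenylephrine and unstimulated arrays. Mapt, which encodes tau, was 1.83-fold higher with PAMH by the brightest of 3 probe sets and had -0.14 with phenylephrine, while the other 2 lay below the floor in unstimulated cells and gave no such ratio. The crosslinker gene Macf1 had -0.18 and -0.16. Clip1, which encodes a plus-end tracking protein, had 108 with PAMH, 214 with phenylephrine and 143 in unstimulated cells, and was 1.99-fold lower with PAMH than with phenylephrine.

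Among motor genes, 2 of 27 were higher with PAMH, 2 of 26 with phenylephrine, and none was lower. The shares over all genes were 9.31% higher and 4.17% lower with PAMH, and 8.90% and 4.54% with phenylephrine. As deposited and after quantile and cyclic loess normalization, 1 motor gene was higher and 1 lower with phenylephrine. Kifap3 was the lower one as deposited, at -0.60, and Dynll2 after the normalizations, at -0.62 and -0.59. A further, dimmer Dynll2 probe set was level, with 239 with PAMH, 238 with phenylephrine and 236 in unstimulated cells. Its log2 ratio was 0.02 with either compound, so the Dynll2 probe sets disagreed. Kif5b, the heavy chain of the ubiquitous kinesin that moves cargo along microtubules, had 2433 with PAMH, 2819 with phenylephrine and 1146 in unstimulated cells. Both treated arrays lay above the unstimulated one, by 2.12-fold and 2.46-fold. The dynein light chain gene Dynlt1 was 1.56-fold higher with PAMH and the dynactin gene Dctn1 1.53-fold higher with phenylephrine, and both were below 1.5-fold after quantile normalization, at log2 ratios of 0.47 and 0.53. At the low end were Kif3c (-0.38) and Dynll2 (-0.32) with PAMH and Kifap3 (-0.47) and Kif5a (-0.44) with phenylephrine. The group's median was 0.14 with either compound.

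**Figure D4:**
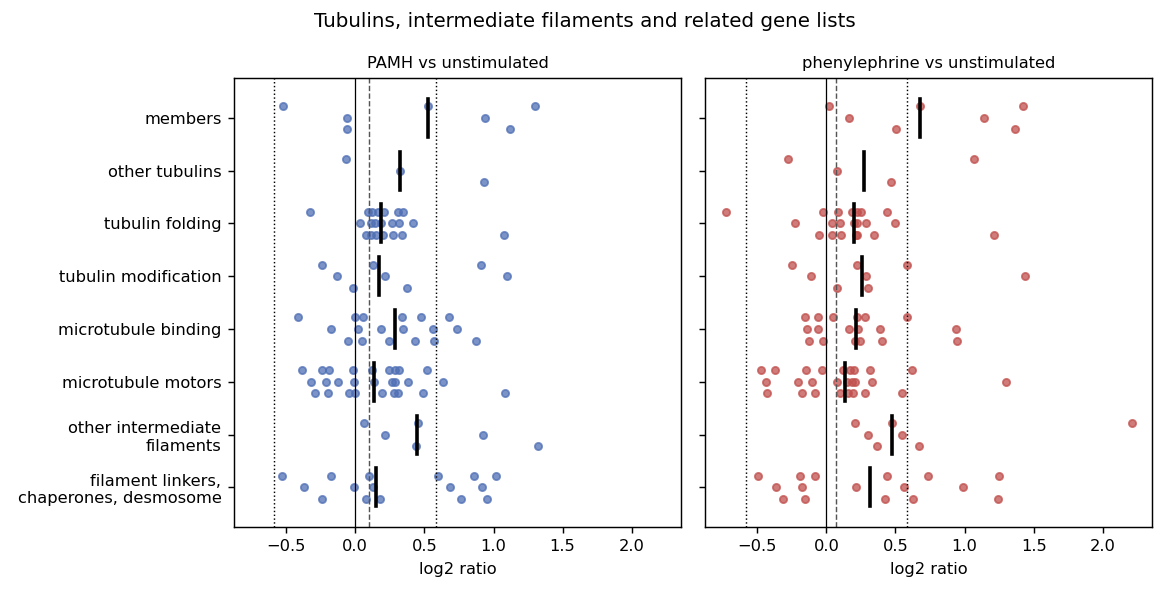
Log2 ratio against the unstimulated array of every measured gene (points) in the members and 7 related lists, with PAMH (left) and phenylephrine (right); the black bar is the list median, the dashed line the median of all genes and dotted lines 1.5-fold. Every list holds at least 1 gene beyond 1.5-fold higher with each compound, and in the folding list Pfdn1 is the only one.

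Of 28 other intermediate filament genes, 24 were on the array, most of them below the floor on at least 1 array, and 6 were measured with PAMH and 7 with phenylephrine. In each comparison 2 were higher and none lower, with medians of 0.45 and 0.48. Across all genes, 9.31% were higher and 4.17% lower with PAMH, and 8.90% and 4.54% with phenylephrine. Synm encodes synemin, which joins desmin filaments to the Z-disc and the membrane. It had 576 with PAMH, 483 with phenylephrine and 304 in unstimulated cells, or 1.90-fold and 1.59-fold higher, by 1 probe set, a second being below the floor throughout, and its phenylephrine log2 ratio was 0.54 as deposited. The epithelial keratin gene Krt18 had 215, 398 and 85.8, or 2.50-fold and 4.63-fold, from an unstimulated signal near the floor. Its obligate partner Krt8 gave 117, 124 and 101, with log2 ratios of 0.22 and 0.30. At the low end, the lamin genes Lmna had 0.07 with PAMH and Lmnb2 0.21 with phenylephrine.

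Proteins that anchor, crosslink or protect desmin filaments formed the last list. Of 16 measured genes, 7 were higher with PAMH and 5 with phenylephrine, and none was lower, but the medians were 0.15 and 0.32. For all genes the shares were 9.31% higher and 4.17% lower with PAMH, and 8.90% and 4.54% with phenylephrine. Syne1 passed 1.5-fold lower under 4 of 9 alternatives with PAMH, to a log2 ratio of -0.68, and under 3 of 9 with phenylephrine, to -0.62. With Syne1 lower, 4 genes were higher after quantile and cyclic loess normalization with either compound. Flnc encodes filamin C of the Z-disc and intercalated disc. It had 1239 with PAMH, 1455 with phenylephrine and 613 in unstimulated cells, or 2.02-fold and 2.37-fold higher. Hspb1, a small heat shock protein that binds intermediate filaments, was 1.93-fold and 2.37-fold higher. Plec, which encodes the linker plectin, had 534, 562 and 284 on the PAMH, phenylephrine and unstimulated arrays. It was 1.88-fold and 1.98-fold higher, and Cryab, the αB-crystallin that chaperones desmin, 1.70-fold and 1.54-fold. After quantile normalization Cryab had log2 ratios of only 0.34 and 0.35, under 1.5-fold. Plec, Cryab and Dsp were chosen after their values were seen. The lowest were Syne1, a nuclear envelope linker (-0.53 with PAMH and -0.50 with phenylephrine), and the calcium-binding protein gene S100a1 (-0.37 and -0.36), while desmoplakin's gene Dsp, which ties desmin to desmosomes, had 0.08 and -0.19. A second Syne1 probe set ran the other way, with 144 with PAMH, 138 with phenylephrine and 68.9, under the floor, in unstimulated cells.

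The genes with the pattern most like each member were found by distance in the plane of the log2 ratios against the unstimulated array, over 3 arrays and 4824 candidate genes. Nearest to Tubb6 were Fdps, an enzyme of isoprenoid synthesis (distance 0.04), and Itgb1bp2 (0.07), and 4 genes lay within 0.1. Those nearest to Des were Itga6, an integrin gene (0.02), and Synpo2 (0.05), with 6 genes within 0.1. For Tuba4a they were Ints1 (0.03) and Rassf3 (0.04), for Tubb2a Sel1l (0.04) and Adarb1 (0.04), and for Nes Ireb2 (0.06) and Klf6 (0.07). Tubb5 had Scfd2 and Cd99 (both 0.01) and Vim had Rtfdc1 and Rasa1 (0.00 and 0.01). Within 0.1 of Tubb5 and Vim lay 108 and 254 genes. All distances given here were below the SD between probe sets of a gene, 0.29 with PAMH and 0.27 with phenylephrine. Both axes also shared the unstimulated array. The matches therefore say little for any member.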

How the data were processed

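The authors deposited linear intensities of 15923 probe sets on 3 arrays, each array the 1 sample of its group. The software behind them is not given in the sources used here. Their means after trimming 2% at each end were equal (250.1), although no such step is recorded there. Of 15866 non-control probe sets, the platform annotation gives 12783 with 1 gene symbol, 312 with several and 2771 with none. Symbols were updated through gene identifiers or transcript accessions for 12750. Each array was scaled to a common median (factors 1.04 for PAMH, 1.02 for phenylephrine and 0.937 for unstimulated), a floor was set at percentile 40, and each gene took its probe set of highest mean signal.

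No test is possible with 1 array per group, and the number of arrays limits precision. The members and lists were chosen with earlier results of these data known. Named genes are the members, the 2 highest and 2 lowest of each list in each comparison against the unstimulated array or between compounds, of which the text gives the main ones, and the 2 genes nearest to each member among those with mean signal above percentile 60. Alternatives covered scaling, normalization, low values and probe set choice. Scripts were tested on simulated data. Python 3.11.15 with numpy 2.4.6, pandas 2.3.3 and matplotlib 3.10.9 and R 4.3.3 with limma 3.58.1 were used; intensities under 1 were set to 1 before log2.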

Additional observations from a re-analysis of the deposited data

How the results depend on the processing

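The count of members past 1.5-fold stayed within 1.5 times its value under all 9 alternatives in all 3 comparisons: 3 or 4 with PAMH, 3 or 4 with phenylephrine and 2 in PAMH against phenylephrine. With PAMH, the deposited intensities, scaling on percentile 75 and quantile and cyclic loess normalization added Tubb2a as lower. Tubb6, Tuba4a and Des kept their side of 1.5-fold with both compounds in every setting, with Des as low as a log2 ratio of 0.77 with PAMH and 1.06 with phenylephrine. Over all genes the split of higher and lower depended on whether medians or trimmed means were equal: 610 and 273 with PAMH became 350 and 515 on the deposited intensities, and 585 and 298 with phenylephrine became 396 and 519. With no floor the counts were 1486 and 1213 with PAMH and 1470 and 1094 with phenylephrine. Of 189 recomputed list counts, 46 differed by more than 1.5 times. No ratio past 1.5-fold changed sign among the members and named list genes. No paired analysis was possible because each group had 1 array. Dim genes near the floor (Tuba8, Tubb2b, Ttc5, Krt18) are the least certain.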

Other observations

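Mapt, which encodes the microtubule protein tau, was measured by 3 probe sets that ranked the arrays differently. The brightest had 188 with PAMH, 93.3 with phenylephrine and 103 in unstimulated cells, another had 178, 75.4 and 46.3, and the last had 160.2, 161 and 42.9. All of these were highest or level with the highest on the PAMH array, and they disagreed on phenylephrine. Mapt was picked after its values were seen.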
